A study of Mus musculus with 6 samples.

Results

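The old-only regions are stretches of open chromatin at which a peak was called in each of 3 libraries from old mice and in none of 3 libraries from young mice. They were chosen by merging the peaks of all 6 libraries on chromosomes 1 to 19 and X wherever they overlapped by 1 bp, and by keeping merged regions with that pattern. The rule kept 2071 of 403801 merged regions, or 0.513%, and the mirrored rule (3 young libraries and 0 old) kept 5743, or 1.42%. Because the peaks of all 6 libraries made the choice, old against young is a description of these regions, and no test of it is given.

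Each library was an Omni-ATAC library of 50000 macrophages grown from BALB/c wild-type mouse bone marrow, cultured as adherent cells and positive for F4/80 and CD169. The old group is 3 libraries from mice over 78 weeks of age, and the young group is 3 libraries from mice of 3 weeks. Strain, genotype, tissue and culture were the same in both groups, and no other agent is named. The labels do not say whether replicates came from separate mice or cultures, so the spread between them may be technical.

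ATAC-seq uses a transposase that inserts sequencing adapters into DNA that is not wrapped tightly in nucleosomes, so a peak marks a stretch of accessible DNA. Accessible DNA lies at promoters, at enhancers within introns and between genes, and at insulators. Which distal elements are open differs more between cell types and states than which promoters are open. In a bulk sample, fewer cells with an open site and a less open site in each cell cannot be told apart.

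The lists of the old libraries held 245667, 227978 and 215947 peaks (replicates 1, 2 and 3), against 243924, 223018 and 254410 in the young libraries. On chromosomes 1 to 19 and X the peaks covered 63.7, 48.2 and 48.9 Mb in old, against 62.2, 52.3 and 66.0 Mb in young. Read depth is unknown, so a region without a peak is one where none was called, not one shown to be closed. All 6 markers of the labelled cells that were looked at (Adgre1 and Siglec1, which encode F4/80 and CD169, with Csf1r, Cd68, Itgam and Mertk) had a peak within 1 kb of a gene end in each of the 6 libraries. So did 3 of 4 B-lineage, 5 of 5 stromal, 2 of 4 neutrophil, 2 of 3 erythroid, 1 of 3 endothelial, 1 of 2 adipocyte and 0 of 3 T or NK cell markers, while Mpo, Gata1 and Adipoq had no such peak in any library. A peak at a gene end is not a measure of the transcript, and the part of other cell types in the old-only regions was not tested.

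Few promoter windows overlapped an old-only region. The windows were 32619 stretches of 250 bases before a RefSeq start site (build GRCm38.p6, whose primary chromosomes are those of mm10). Of these, 12 windows of 12 genes overlapped an old-only region. Young-only regions overlapped 64 windows of 59 genes, and regions with a peak in all 6 libraries overlapped 15163 windows. These sets hold 2071, 5743 and 121253 regions, so the counts also follow set size and are not rates. The count for all merged regions was not taken. Shares of regions near a start site are given below. Of the 12 genes, 3 are protein-coding, and their windows are printed because they are the promoters that the old-only regions touch. Tnfrsf25 encodes a TNF receptor family member of lymphocytes, Hephl1 a copper-dependent ferroxidase, and Cdyl a chromodomain protein of repressed chromatin. The windows lie at chr4:152115684-152115933 on the plus strand, chr9:15112109-15112358 on the minus strand and chr13:35659612-35659861 on the plus strand, and are written 5′ to 3′ with the bases inside the old-only region in capitals.
Tnfrsf25: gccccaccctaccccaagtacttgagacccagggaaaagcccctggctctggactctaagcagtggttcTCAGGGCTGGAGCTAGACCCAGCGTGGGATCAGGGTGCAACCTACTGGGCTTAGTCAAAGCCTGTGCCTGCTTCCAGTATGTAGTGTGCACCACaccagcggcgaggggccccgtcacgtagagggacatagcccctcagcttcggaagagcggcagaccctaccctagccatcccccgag
Hephl1: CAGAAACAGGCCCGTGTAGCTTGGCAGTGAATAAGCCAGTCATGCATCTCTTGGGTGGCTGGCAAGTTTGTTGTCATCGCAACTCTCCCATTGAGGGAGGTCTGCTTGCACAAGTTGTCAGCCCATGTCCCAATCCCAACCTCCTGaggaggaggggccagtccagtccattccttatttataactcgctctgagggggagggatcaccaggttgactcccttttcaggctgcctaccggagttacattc
Cdyl: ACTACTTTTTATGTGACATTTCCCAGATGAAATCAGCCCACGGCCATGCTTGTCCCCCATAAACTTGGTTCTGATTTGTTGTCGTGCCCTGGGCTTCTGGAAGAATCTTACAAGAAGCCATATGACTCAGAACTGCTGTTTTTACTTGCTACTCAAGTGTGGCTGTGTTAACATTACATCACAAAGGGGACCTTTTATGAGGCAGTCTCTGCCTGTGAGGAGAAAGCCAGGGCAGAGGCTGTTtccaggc

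A peak's −log10 q is the authors' measure of its significance after correction within its own library, and higher values mark stronger peaks. The Cdyl region covered 243 of the 250 bases, with −log10 q values of 2.90, 1.44 and 2.16 in old replicates 1, 2 and 3, and the nearest peak of any young library was 5680 bp away. The Hephl1 region covered 146 bases, with −log10 q values of 1.70, 1.84 and 2.57 in the old libraries and the nearest young peak 8014 bp away. The Tnfrsf25 region covered 94 bases, with values of 1.08, 1.16 and 1.90, and a young peak lay 85 bp away. The Tnfrsf25 region thus sat beside chromatin that was also called open in young libraries, while the other two lay kilobases from any.

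The 12 windows had a median GC content of 49.8%, against 49.8% in the 64 windows at young-only regions, 60% in the 15163 windows at regions with a peak in all 6 libraries and 52.4% over all windows. The TEAD motif GGAATG, on either strand, was present in 6 of the 12 windows (50%), in 7.81% of the windows at young-only regions and in 12.6% of all windows. In the windows of Gm11454, Hephl1 and Gm46397 the TEAD match lies outside the old-only region, and in the other windows with a match it lies inside. The AP-1 motif TGANTCA, which in the Cdyl window lies inside the old-only region, was present in 3 of 12 windows (25%), in 10.9% of the windows at young-only regions and in 6.78% of all windows. A window was counted once per motif, also where matches overlap. The SP/KLF motif GGGCGGG, a feature of GC-rich promoters, was present in 1 of the 12 windows (8.33%), in 17.2% of the windows at young-only regions, in 41.8% of those at regions with a peak in all 6 libraries and in 23.6% of all windows. The RUNX motif TGTGGTT was present in 16.7% of the 12 windows, in 14.1% of those at young-only regions and in 4.41% of all windows. PU.1 GAGGAAG was in 8.33% of the 12, in 20.3% at young-only regions and in 10.7% of all windows. The E-box CAGCTG was in 16.7%, 15.6% and 13.1% of the same 3 sets, and the E-box CACGTG in 8.33%, 1.56% and 6.06%. C/EBP TTGCAAT, NF-kB GGGACTT and the CTCF part AGGGGGC were in 0 of the 12, against 0%, 3.12% and 9.38% of the windows at young-only regions and 1.97%, 4.68% and 9.49% of all windows. With 12 windows these shares are a description and say nothing of which factors bind there.

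Away from promoters, old-only regions lay near 25 of 1005 microRNA hairpins, or 2.49%, within 10 kb, and near 14 of them within 5 kb. The same share was not taken for young-only or all merged regions, so 2.49% cannot be read as many or few. The mature sequences below belong to the hairpins of long-studied microRNAs among the 14, chosen after their positions were seen; they are taken from RefSeq, with the seed (bases 2 to 8) in capitals, and show that no seed is shared among them.
miR-346-5p: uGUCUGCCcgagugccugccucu
miR-99a-5p: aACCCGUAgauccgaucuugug
let-7c-5p: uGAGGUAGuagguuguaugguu
miR-101a-3p: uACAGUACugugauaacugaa
miR-192-5p: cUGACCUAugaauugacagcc
miR-194-5p: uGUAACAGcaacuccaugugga

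Mir346 is encoded inside Grid1 on chromosome 14, and an old-only region lay 2145 bp upstream of its hairpin, with −log10 q values of 5.17, 1.78 and 3.16 in old replicates 1, 2 and 3 and a young peak 354 bp away. Mir99a and Mirlet7c-1 are encoded side by side on chromosome 16 and shared 1 old-only region, 2100 and 2821 bp upstream of the hairpins, with values of 3.00, 1.85 and 2.97 and the nearest young peak 1625 bp away. The pair Mir194-2 and Mir192 on chromosome 19 shared 1 region 2912 and 2708 bp downstream, with values of 2.59, 1.71 and 1.28 and a young peak 194 bp away. Mir101a on chromosome 4 had a region 3835 bp upstream with values of 1.85, 2.09 and 1.82 and a young peak 828 bp away. At each of these sites all 3 old libraries had a peak of low to middling strength. Whether the microRNAs themselves differed with age was not measured.

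The place of the old-only regions along genes was mostly distal. Gene spans were used without strand or exons, so a gene end is either end of the span and exons and introns were not separated. Within 1 kb of an end of a protein-coding gene lay 93 of them, or 4.49% (95% exact binomial interval 3.64 to 5.47, counting error only), against 6.11% of young-only regions, 15.1% of regions with a peak in all 6 libraries and 9.08% of all merged regions. Inside gene bodies lay 48.5% of old-only regions, against 50.01% of young-only regions, 46.7% of regions with a peak in all 6 libraries and 49.99% of all merged regions. Elsewhere lay 47.0%, against 43.9%, 38.3% and 40.9%. Near a start site the gap was wider: 56 of the 2015 old-only regions outside chromosome 18, whose start sites were not used here, lay within 1 kb of one, or 2.78%, against 6.26% of young-only regions and 8.17% of all merged regions. The median distance to a gene end was 25797 bp for old-only and 26006 bp for young-only regions.

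**Figure D1:**
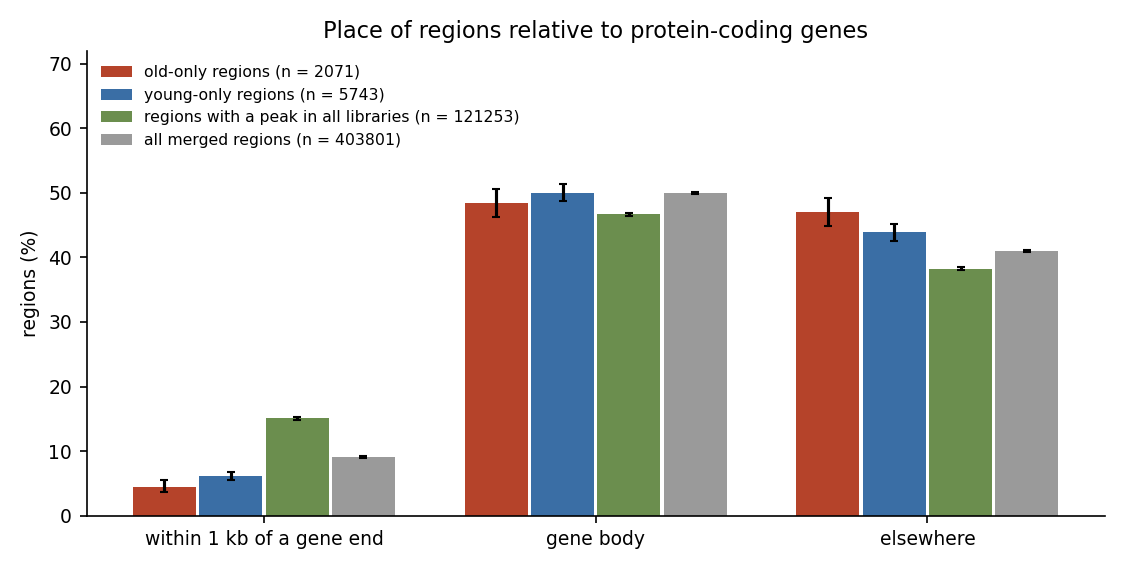
Share of regions (%) by place relative to protein-coding genes for old-only regions, young-only regions, regions with a peak in all 6 libraries and all merged regions; bars are shares and whiskers 95% exact binomial intervals, counting error only. Within 1 kb of a gene end the old-only share of 4.49% is the lowest of the 4, against 15.1% for regions with a peak in all 6 libraries.

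The regions were narrow. Their median width was 191 bp (quartiles 143 and 262 bp), against 176 bp for young-only regions and 447 bp for regions with a peak in all 6 libraries. In 1986 of them (95.9%) each old library had exactly 1 peak, and in 1890 (91.3%) the strongest peaks of all 3 old libraries had bases in common, with a median of 58 shared bases. In the remaining regions the strongest peaks of the 3 libraries had no base common to all.

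Old-only regions differed in how near they lay to chromatin that was open in young libraries. The same distance was not taken over all merged regions, so these shares are not read as many or few. The nearest young peak was within 200 bp of 14.0% of old-only regions and within 1 kb of 39.8%, at a median of 1569 bp. For young-only regions the nearest old peak was within 200 bp of 18.7% and within 1 kb of 48.9%, at a median of 1052 bp. No young peak lay within 10 kb of 10.1% of old-only regions, and the most isolated one was 342518 bp from any. The set thus holds both regions beside young peaks and regions far from any.

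The peaks in old-only regions were weak within their own lists. Fold enrichment and −log10 q are the authors' values for each peak, and peaks were ranked within their own library's list. Values of different libraries are given side by side and also vary with the library, whose depth is unknown. The median fold enrichment was 3.17, 3.03 and 3.03 in old replicates 1, 2 and 3, and the median −log10 q was 2.38, 1.78 and 2.00. Their medians stood at percentiles 32.9, 32.5 and 29.5 of −log10 q in the 3 lists, while peaks of the same libraries in regions with a peak in all 6 libraries stood at 74.5, 71.1 and 69.8. Young-only regions stood at percentiles 32.0, 26.6 and 31.5 of the young lists (replicates 1, 2 and 3). A −log10 q of at least 2 in all 3 old libraries was reached by 410 old-only regions (19.8%), of at least 3 by 57 (2.75%) and of at least 5 by 1.

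**Figure D2:**
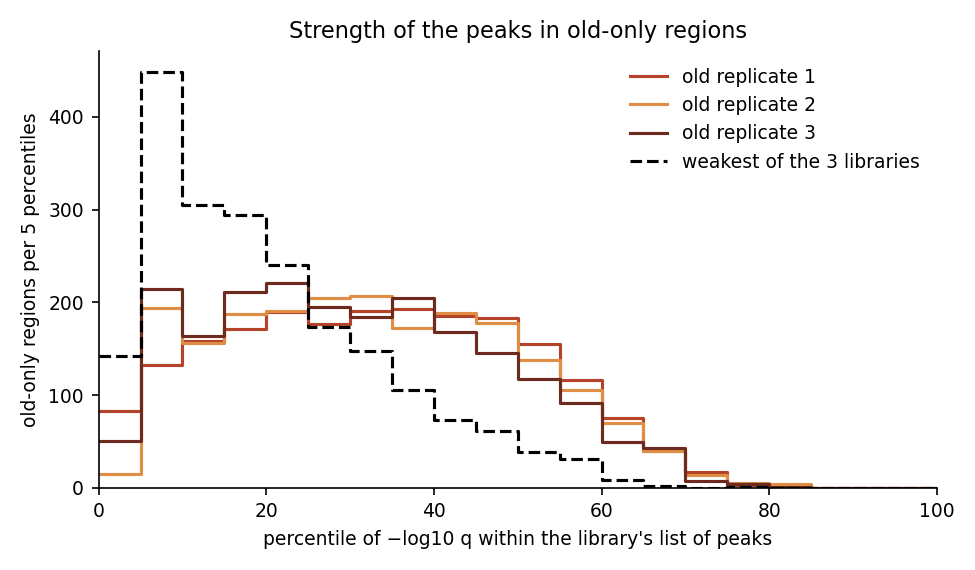
Number of old-only regions per 5 percentiles against the percentile of the region's strongest peak in the −log10 q ranking of each old library's list; the dashed line takes the weakest of the 3 libraries. In each library the median lies in the lower part of the list (percentiles 32.9, 32.5 and 29.5), and 81 regions lie above percentile 50 in all 3.

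The strongest region by its weakest library, and the 1 that passed a −log10 q of 5 throughout, lay in Zfp541, a zinc finger gene of male germ cells, at chr7:16094644-16094836, 1504 bp from a gene end. Its −log10 q was 10.6, 6.36 and 6.64 in old replicates 1, 2 and 3, its fold enrichment 3.16, 3.05 and 2.97, and the nearest young peak was 3193 bp away. The Btg3 region followed, 1369 bp upstream of this antiproliferative gene on chromosome 16, with −log10 q values of 7.52, 4.99 and 4.96 and a young peak 1364 bp away. Next was a region in Gse1 on chromosome 8, with values of 5.81, 3.71 and 4.69. All 3 old libraries placed these peaks in the upper part of their lists, the lowest at percentile 66.0.

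The Taf1b region on chromosome 12 lay 3511 bp upstream of this RNA polymerase I factor gene, with −log10 q values of 6.88, 3.36 and 5.12 in the old libraries and a young peak 950 bp away. The one in Dusp11, an RNA phosphatase gene on chromosome 6, had values of 6.73, 3.27 and 3.94 and a young peak 580 bp away. The region in Lpgat1, an acyltransferase gene of phospholipid synthesis on chromosome 1, had values of 4.63, 3.43 and 6.07. Among the same 10 best ranked regions, that nearest Zfp330 lay 3297 bp from the gene, that nearest Thsd7a 37372 bp and that nearest Cog6, a Golgi tethering gene, 127208 bp. In 9 of the 10, old replicate 1 had the highest −log10 q, and it also had the longest list and the widest coverage of the old libraries.

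At the border of the rule the values were small. The members just inside, by their lowest −log10 q in an old library, lay in Galnt10 (1.02, in old replicate 3), in Fam53c (1.02, in old replicate 2) and 8894 bp from Trpm1 (1.04, in old replicate 3). Regions with a peak in all 3 old and 1 young library were just outside, and those with the weakest young peak lay in Dock4 (1.00, in young replicate 3), Aff1 (1.01, in young replicate 3) and Galnt2 (1.04, in young replicate 1). In all, 3553 regions failed by a single young peak, of which 927 had it in young replicate 1, 474 in young replicate 2 and 2152 in young replicate 3, the library with the longest list and the widest coverage. Another 7427 failed by a single missing old peak, which was missing in old replicate 1 for 1279, in old replicate 2 for 3250 and in old replicate 3 for 2898.

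The count depended on each library. Without old replicate 1, 2 or 3 the rule kept 3441, 5324 or 4997 regions, and without young replicate 1, 2 or 3 it kept 3006, 2550 or 4247. All of these are larger than 2071 since fewer libraries have to meet the rule. Where a peak counted only if it covered 50% or more of the merged region, 2218 regions were old-only and 676 of them were members. On lists that kept only peaks with −log10 q from 5 upwards, 702 regions were old-only and 1 of them overlapped a member, so those are other regions.

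All 6 libraries chose the old-only regions described above, so no library is held out for them. Held-out shares can be given only for other sets of regions, chosen by the same rule on fewer libraries. The rule was applied to 2 old and 2 young libraries, and the regions it chose were looked up in the old and the young library left out, for all 9 pairs. On the deposited lists the sets chosen as old-only held 4116 to 9418 regions. The regions chosen as old-only had a peak in the held-out old library in 40.0% to 72.6% of cases (median 45.2%), and in the held-out young library in 15.9% to 43.8% (median 27.4%). The old share was the higher one in 9 of 9 pairs, by 1.76 to 48.1 percentage points (median 23.4). The pairs share libraries, so no p-value is given. These shares describe the rule on 4 libraries and are not a test of the regions chosen on all 6.

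The size of that gap differed with the libraries held out. With old replicate 1 held out it was 40.7, 48.1 and 28.8 points against young replicates 1, 2 and 3. With old replicate 2 held out it was 13.7, 23.4 and 1.76 points, and with old replicate 3 held out 16.7, 27.6 and 4.96 points. The small gaps of 1.76 and 4.96 points both had young replicate 3 held out, the library with the longest list. With each list held to 215947 peaks, the length of the shortest, the gap was 14.0 to 42.9 points (median 27.3) and the old share was higher in 9 of 9 pairs. Over all merged regions, chosen without regard to age, the old share was higher in 2 of 9 pairs (46.6% to 57.6% in held-out old and 49.5% to 62.7% in held-out young libraries).

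**Figure D3:**
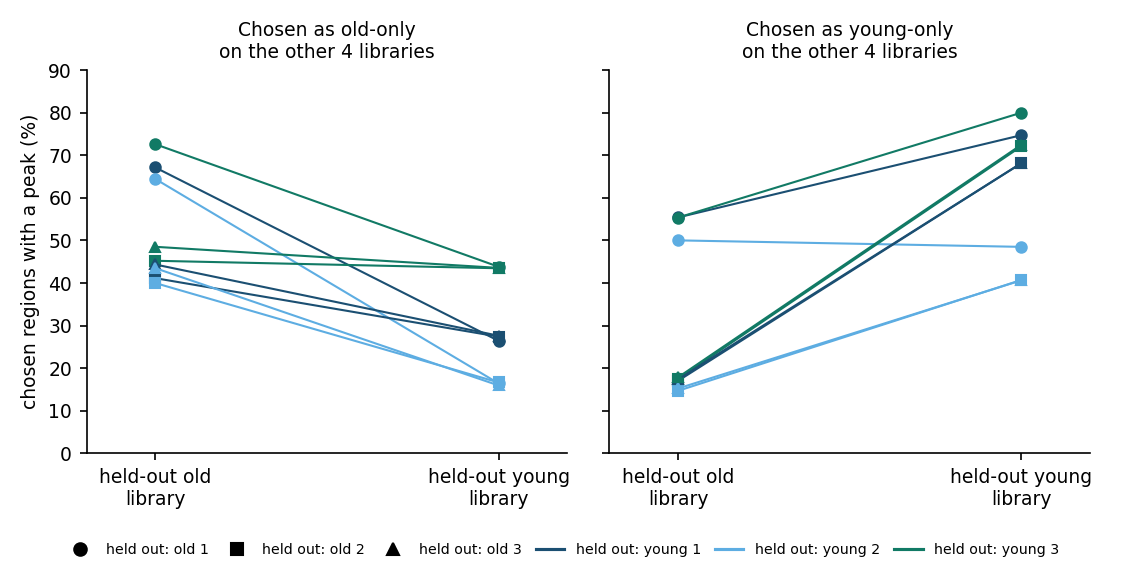
Share (%) of regions with a peak in the held-out old library and in the held-out young library, for regions chosen as old-only (left) and as young-only (right) on the other 4 libraries; each line is 1 of 9 pairs, with the marker giving the old and the colour the young library held out. In the left panel the old share is higher in 9 of 9 pairs, and the 2 smallest gaps (1.76 and 4.96 points) have young replicate 3 held out; in the right panel the young share is higher in 8 of 9 pairs.

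For regions chosen as young-only in the same way, the share with a peak was 14.7% to 55.4% in held-out old libraries (median 17.5%) and 40.7% to 80.0% in held-out young libraries (median 68.2%). The held-out old share was the higher one in 1 of these 9 pairs, by 1.52 points. The median gap was -26.0 points, old minus young, against 23.4 points for regions chosen as old-only. On lists of equal length these medians were -32.4 and 27.3 points, and for young-only choices the old share was higher in 0 of 9 pairs.

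Along the chromosomes the old-only regions were spread rather evenly. They numbered 3.90 per 1000 merged regions on chromosome X, the lowest, and 6.25 on chromosome 8, the highest, with a median of 4.95 over the 20 chromosomes. Per megabase they ranged from 0.143 on X to 1.25 on chromosome 19. Young-only regions ranged from 12.4 per 1000 merged regions on chromosome 17 to 18.5 on X, so X was lowest for old-only and highest for young-only regions. Chromosome X held 24 old-only regions, and its lists held 4538, 3200 and 3192 peaks in old replicates 1, 2 and 3, against 4421, 3518 and 4966 in young replicates 1, 2 and 3. On chromosome Y, which the rule leaves out, the lists held 50, 47 and 53 peaks in old and 45, 52 and 56 in young libraries.

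**Figure D4:**
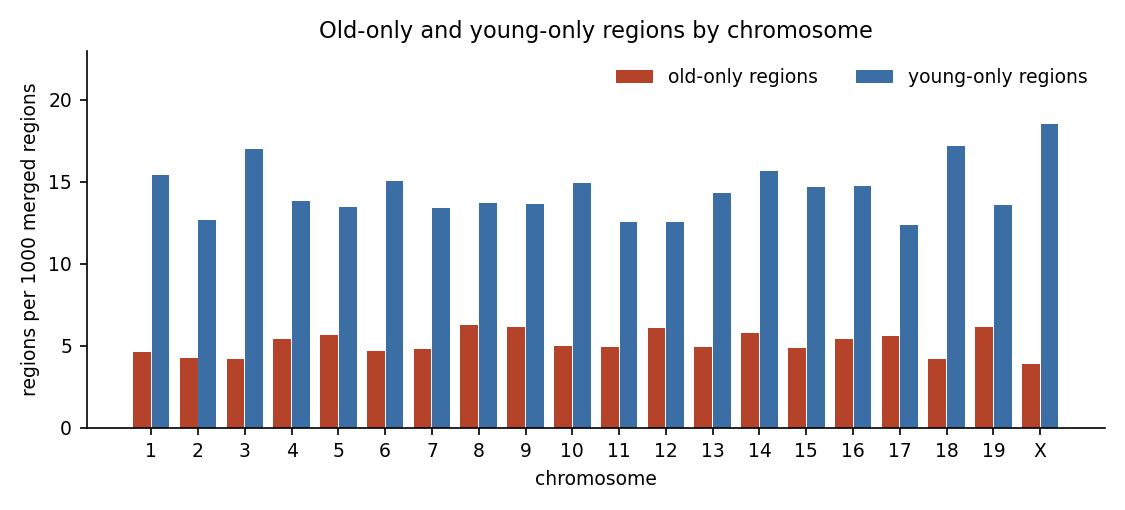
Old-only and young-only regions per 1000 merged regions on each chromosome. Old-only regions lie between 3.90 (X) and 6.25 (chromosome 8), and young-only regions between 12.4 (chromosome 17) and 18.5 (X).

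The distance from an old-only region to the nearest other one had a median of 272286 bp, and 558 of them (26.9%, interval 25.04 to 28.9) had another within 100 kb. For the more numerous young-only regions the median was 92219 bp and the share 52.4%; since a larger set is closer spaced by its size, these 2 shares are not comparable as clustering. Within 10 kb of another lay 83 old-only regions and within 1 kb lay 30. Groups were runs of old-only regions in which any 3 neighbours started within 100 kb of each other, so a group of 4 could span more than 100 kb. They numbered 24 and held 74 old-only regions, with at most 4 in a group.

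A group of 4 lay between genes at chr13:46067752-46174265, where 4 of 15 merged regions were old-only, and the nearest protein-coding gene, Stmnd1, was 99456 bp away. The other group of 4, at chr8:44817771-44937694, ended in Fat1, which encodes an atypical cadherin, and held 4 of 23 merged regions. The tightest group of 3 lay inside Smoc2, which encodes a secreted calcium-binding matrix protein, at chr17:14361933-14364930, where 3 of the 6 merged regions within 3.00 kb were old-only and none had a peak in all 6 libraries. Its −log10 q values in the weakest old library were 2.33, 2.57 and 1.44. Groups of 3 followed at chr9:23041089-23066533, 152806 bp from Bbs9, and at chr8:68995905-69030465, 7243 bp from Slc18a1. Among these 5 groups, that near Slc18a1 held 1 young-only region among 21 merged regions and the others held 0, against 1.42% of all merged regions. With so few merged regions per group, these numbers are not read as an absence.

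Among 21631 protein-coding genes, 1372 (6.34%) had an old-only region in the gene or within 10 kb of it. These genes were long, with a median of 53.2 kb against 17.3 kb over all protein-coding genes, and the counts below are not adjusted for length. Of the 1372, 1224 had 1 region, 134 had 2 and 14 had 3 or more, with medians of 48.1, 184 and 448 kb. Young-only regions reached 3408 genes (15.8%), and 409 genes, 29.8% of the 1372 and 12% of the 3408, had both kinds.

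Grid1, which encodes the delta-1 subunit of the glutamate receptor family and is known from synapses, had the most old-only regions. It spans chr14:34820003-35583387 and held 6 of them among 69 merged regions (8.70%), with 0 young-only regions. All its peaks, whether old-only or shared, numbered 32, 39 and 23 in old replicates 1, 2 and 3, against 9, 8 and 11 in young replicates 1, 2 and 3. Each old library thus had more peaks in Grid1 than each young one. The strongest of the 6, at chr14:34969137-34969416, had −log10 q values of 6.38, 3.28 and 3.20 in the old libraries, and the nearest young peak was 53691 bp away. The region 113394 bp from any young peak, at chr14:35028840-35028919, was weaker, with values of 2.37, 1.10 and 1.91.

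Prkce, the gene of protein kinase C epsilon on chromosome 17, followed with 5 of 176 merged regions and 1 young-only region, and had 107, 116 and 101 peaks in old against 112, 103 and 99 in young libraries. Rora, which encodes a nuclear receptor, had 4 of 217, with 124, 130 and 123 peaks in old against 123, 106 and 121 in young. In both genes the peak numbers of the groups overlapped. Cdh13, the gene of T-cadherin, had 3 of 161, with 63, 93 and 69 peaks in old against 45, 47 and 56 in young libraries, which do not overlap. Among the 14 genes with 3 or more, Grid1 and Cdh13 were the 2 with more peaks in each old than in each young library, and 0 of the 14 showed the reverse. The pattern was shown by 128 of the 1372 genes with an old-only region and by 2.26% of the 19083 genes with a merged region, and the reverse by 33 of the 1372 and by 4.98% of the 19083. Every old-only region adds a peak to each old library and none to a young one, so the counts for genes chosen by such regions follow in part from the rule and are a description.

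**Figure D5:**
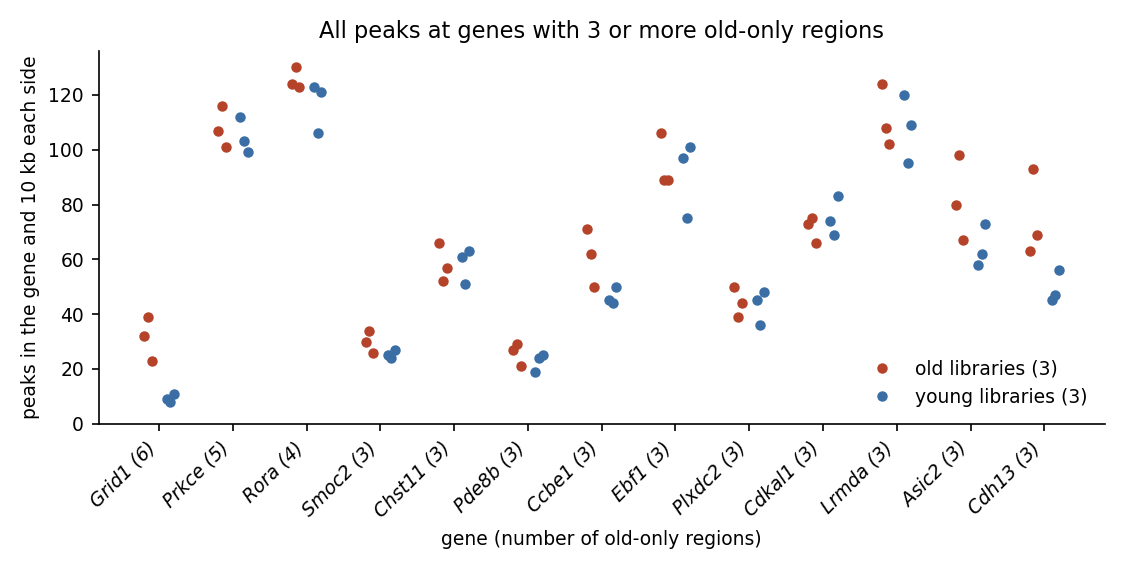
Number of peaks per library in the genes with 3 or more old-only regions, 1 of the 14 not shown, counted in the gene and 10 kb each side; each point is 1 library, old left of young, and the number of old-only regions is in brackets. Grid1 has 23 to 39 peaks in old and 8 to 11 in young libraries, Cdh13 has 63 to 93 in old and 45 to 56 in young, and in most other genes the points of the groups overlap.

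Among these 14 genes, Smoc2 had the most old-only regions for its length, 2.06 per 100 kb. Lower values were those of Chst11, a chondroitin sulfotransferase gene, with 1.30, and Pde8b, a cyclic AMP phosphodiesterase gene, with 1.22. Ccbe1, a secreted factor gene of lymphatic growth, had 1.18 and Prkce 0.98. Further genes with 3 regions were Ebf1, a transcription factor gene of the B lineage, Plxdc2, Cdkal1, Lrmda and Asic2, which encodes an acid-sensing ion channel. Ebf1 also held 5 young-only regions, and its peaks numbered 106, 89 and 89 in old against 97, 75 and 101 in young libraries.

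At gene ends, the best ranked old-only region lay 188 bp from an end of Dlx2, a homeobox gene, with −log10 q values of 4.46, 3.42 and 4.02 in the old libraries and a young peak 283 bp away. Lars2, the mitochondrial leucine tRNA synthetase gene, had values of 3.35, 3.15 and 5.80 at 321 bp from an end. Sec11a, a signal peptidase gene, had 3.20, 6.72 and 3.72 at 220 bp, and its nearest young peak was 3852 bp away. All 3 regions had a −log10 q above 3 in each old library. Zdhhc4, Dnajc27, St14, Sesn2 and Arhgef26 followed, with −log10 q values in the weakest old library of 2.25, 2.53, 2.24, 2.49 and 2.29. Sesn2 encodes a stress-induced regulator of nutrient signalling and St14 the protease matriptase.

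The genes of the study's title and those of the surface markers F4/80 and CD169 held none. Cxcl13, a chemokine gene of B-cell follicles, and Cxcr5, its receptor gene, had 0 old-only regions among 5 and 19 merged regions. The nearest were 887572 and 366143 bp away. Adgre1 and Siglec1 also had 0, among 16 and 21 merged regions, with the nearest 185582 and 456145 bp away. As 0.513% of all merged regions were old-only, numbers this small are not read as an absence. Within 10 kb of Cxcl13 there were 3, 1 and 2 peaks in old against 2, 2 and 1 in young libraries, which overlap. Cxcr5 had 1 young-only region, and 15.8% of all protein-coding genes had at least 1.

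Lists of genes for bone marrow cells, signalling pathways and other tissues were read against the 6.34% of all protein-coding genes and the 0.513% of all merged regions. Macrophage identity genes held 0 old-only regions among 555 merged regions (0 of 30 genes), and 6 of the 30 (20%) had a young-only region, against 15.8% of all protein-coding genes. Inflammatory chemokine genes held 0 among 168 (0 of 21 genes), osteoblast genes 0 among 406, endothelial genes 0 among 476, neutrophil genes 0 among 168, erythroid genes 0 among 215 and Hox genes 0 among 306. In 5 of these 7 lists the median gene was shorter than the 17.3 kb over all protein-coding genes.

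Interferon-stimulated genes held 4 old-only regions among 337 merged regions (1.19%), at 5 of 25 genes, with young-only regions also at 5. They lay in Oas2, which makes the activator of an antiviral ribonuclease, with −log10 q values of 3.03, 2.32 and 1.46 in the old libraries, in Usp18, which removes the modifier ISG15, with 3.61, 2.06 and 1.92, and in Rsad2, the antiviral gene of viperin, with 2.39, 2.08 and 2.48. A single region lay 573 bp from Ifit2 and 5734 bp from Ifit3. Its values were 1.63, 1.78 and 1.41, and the nearest young peak was 5350 bp away. The regions in Oas2, Usp18 and Rsad2 lay closer to a young peak, at 841, 510 and 640 bp, and Rsad2 also had 1 young-only region.

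Glutamate and GABA receptor genes held 12 among 1006 (1.19%), at 5 of 47 genes, and 6 of the 12 were those of Grid1. Young-only regions lay at 12 of the 47, and the median gene of this list was 183 kb long. Gabrg3 and Grin2d had 2 each and Grin3a and Grik1 had 1 each. The strongest of these outside Grid1, in the weakest old library, was that of Grin3a, with −log10 q values of 2.13, 2.32 and 4.26. TGF-beta pathway genes held 9 among 1041 (0.865%), at 6 of 28 genes. Young-only regions lay at 10 of the 28, and the median gene was 69.8 kb long. Bmpr1b, Tgfbr3 and Smad6, which encode 2 receptors of the family and an inhibitory SMAD, had 2 each, and the ligand genes Tgfb2 and Bmp6 and the binding protein gene Ltbp1 had 1 each.

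Senescence genes held 3 among 274 (1.09%), with 2 in Rb1, the retinoblastoma gene, and 1 in Cdkn2a, the gene of the cell cycle inhibitors p16 and p19, whose region had −log10 q values of 1.56, 1.18 and 1.63 and lay 53 bp from a young peak. AP-1 genes held 2 among 256 (0.781%), within 10 kb of Fosl2 and of Junb, 184 and 170 bp from a young peak. Young-only regions lay at 5 of the 16 senescence genes, Cdkn2a among them, and at 0 of the 15 AP-1 genes. B-lineage genes held 3 among 447 (0.671%), all in Ebf1, and mesenchymal stroma genes 3 among 538 (0.558%), in Col1a2 and within 10 kb of Nt5e and Foxc1. Notch genes held 4 among 744 (0.538%), of which 2 were at Notch4. Lysosome genes held 3 among 540 (0.556%), at Ctsd, Lamp1 and Ctsh.

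In cadherin genes 8 of 1465 merged regions were old-only (0.546%), led by Cdh13 with 3. Old-only regions lay at 6 of the 42 cadherin genes and young-only regions at 17. The Fat4 region had the best weakest-library rank of these, with −log10 q values of 5.31, 4.32 and 3.76, and lay 209 bp from a young peak. Synaptic adhesion and axon guidance genes held 8 among 2829 (0.283%), with 2 in Cntn5, one of them 331271 bp from any young peak, and 1 in Ntrk3, the neurotrophin-3 receptor gene, with values of 3.71, 2.13 and 4.71. Potassium and calcium channel genes held 6 among 1905 (0.315%), and collagen and matrix genes 5 among 1251, in or within 10 kb of Col15a1, Col1a2, Col4a1, Col6a2 and Loxl2.

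The other lists held few. Chemosensory receptor genes had 5 among 946 (0.529%), keratin and cornified epithelium genes 2 among 319, at Pkp1 and Trp63, ribosomal protein genes 2 among 644, and PAX, T-box and sine oculis homeobox genes 2 among 585, at Pax7 and Eomes. Among MHC class II genes 1 lay 9676 bp from H2-Oa, with Brd2 nearer to it, and among osteoclast genes 1 lay 4355 bp from Clcn7, with Ccdc154 nearer. Among heme and iron genes 1 lay 3172 bp from Hfe, among NF-kB and Toll-like genes 1 lay 3551 bp from Nlrp3, among T and NK cell genes 1 lay 3325 bp from Eomes and among adipocyte genes 1 lay in Pparg. Each share is read off a few regions, and no list is set apart by a test.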

How the data were processed

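The 3 old and 3 young Omni-ATAC libraries were grouped by the labels. Per the submitters' processing notes, MACS2 2.1.0.20140616, Bowtie2 2.2.6, cutadapt 1.14, Trim Galore 0.4.4, Picard and SAMtools were used with mm10. How duplicates were handled and reads shifted is not stated there. The authors deposited 1 broad peak list per library, with a score, a fold enrichment (a ratio over local background) and the −log10 p and −log10 q of each peak. The lowest deposited −log10 q was 1.00.

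Peaks on chromosomes 1 to 19 and X were merged over 1 bp overlaps with Python 3.11.15, numpy 2.4.6 and pandas 2.3.3; the code was tested on simulated data. Intervals are exact binomial (scipy 1.17.1), and figures used matplotlib 3.10.9. Gene spans, start sites and microRNAs came from RefSeq tables of GRCm38.p6; 17274 of 21631 protein-coding genes had a start-site entry. The region sequences were not analysed here, so motifs, both strands, were searched in promoter windows instead, a choice made after the data were seen. Depth is unknown.

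Members and lists were chosen with earlier results of these data known. Named are the 10 regions and 8 gene-end genes best by their weakest old library, genes with most regions (ties kept), the 5 densest groups (ties by shortest span, chosen after values were seen) and every list gene holding a region where there were 6 or fewer, otherwise those with most; 1 item is not reported here. Thresholds, list lengths, overlap, merging, windows and left-out libraries were the alternatives.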

Additional observations from a re-analysis of the deposited data

How the results depend on the processing

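No paired analysis was possible because no result comes from a test. The number of old-only regions was 2071 on the deposited lists, 702 with −log10 q of 5 or more, and 2550 to 5324 with 1 library left out. The share within 1 kb of a gene end (4.49%) was 6.75% on the 50000 strongest peaks, 4.73% to 5.18% with 1 library left out, and 2.56% and 18.2% with windows of 500 bp and 5 kb. The share within 100 kb of another (26.9%) was 21.1% and 12.8% at −log10 q of 2 and 5, 31.2% on the 50000 strongest, 32.3% on lists of equal length, 24.6% with peaks up to 200 bp apart merged, 31.4% to 52.3% with 1 library left out, and 7.24% and 69.7% at 20 and 500 kb. The median −log10 q of the weakest old peak (1.54) was 2.35, 5.77 and 7.29 on the first 3 of these lists, which keep only stronger peaks, and 1.49 to 1.65 with 1 library left out. The median held-out gap (23.4 points) was 43.2 points at −log10 q of 5 and 59.7 points on the 50000 strongest, alternatives chosen after seeing the data. Beyond the settings that keep stronger peaks, fewer libraries or other distances, the cause was not tested. On the 50000 strongest peaks the old-only regions numbered 2177 and the young-only 1716, the reverse order to the deposited lists (2071 and 5743), and 1 of the 2177 overlapped a member. With all lists cut to the length of the shortest, 2798 regions were old-only and 5191 young-only. Depth is unknown, and its part was not tested.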
